A study of Mus musculus with 10 samples.

Results

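The genes described here are 10 Wnt and beta-catenin targets of the pericentral zone of the mouse liver, taken as a list of names and read in the count table of the EP300 experiment, which holds 55385 gene identifiers. They comprise 3 metabolic genes of the pericentral zone (Glul, Slc1a2 and Oat) and 7 direct Wnt targets, most of which act back on the pathway (Axin2, Lgr5, Sp5, Tbx3, Nkd1, Rnf43 and Znrf3). All 10 genes were in the table and all 10 passed the filter on low counts, Sp5 through the libraries labelled EP300 WT alone. The experiment has 4 RNA libraries from perfused and sorted liver cells labelled as hepatocytes, with no sort gate given. The 2 libraries labelled EP300 KO come from EP300f/f mice injected with the virus AAV-TBG-Cre, which expresses Cre recombinase from a hepatocyte promoter, and their genotype is labelled EP300-/-. The 2 libraries labelled EP300 WT come from EP300f/f mice injected with AAV-TBG-GFP. All 4 share the strain label C57BL/6J 129SV, a DDC diet, which causes chronic liver and bile duct injury, and tail vein delivery of pT3-cMet, a plasmid for the receptor tyrosine kinase cMet, with a treatment time of 5 months, and carry HCC (hepatocellular carcinoma) in their titles. EP300 is a histone acetyltransferase and transcriptional coactivator. No library without DDC and cMet is part of the comparison, so it has no untreated baseline. The labels give neither age nor sex, speak of pooled sequencing and name no mouse for any library, so the p-values reflect only how far libraries of a label differ, a spread that may be technical.

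Library totals ran from 17709799 to 17811489 counts in the libraries labelled EP300 KO and from 18575701 to 18831671 counts in those labelled EP300 WT. Ep300, the targeted gene, stood at 73.7 and 72.3 CPM (counts put on a common scale by library size and TMM factors) in the libraries labelled EP300 KO, against 62.3 and 57.9 CPM in those labelled EP300 WT. Its log2 fold change, KO over WT as in all that follow, was 0.28 (SE 0.07, edgeR quasi-likelihood adjusted p = 0.00498), a call lost when EP300 WT replicate 2 was left out (0.24, adjusted p = 0.128). The targeted gene therefore stood above its level in the libraries labelled EP300 WT, against the direction its label would give. Counts over a whole gene cannot show the loss of an exon, and every direction below is between libraries as labelled. Xist, transcribed from the inactive X chromosome of females, had 2310 and 1411 counts in the libraries labelled EP300 KO and 3 and 2 counts in those labelled EP300 WT, while the Y-linked gene Ddx3y had 954 and 813 counts in the libraries labelled EP300 KO and 1079 and 1077 counts in those labelled EP300 WT. Xist thus separated the labels while Ddx3y was present in all 4 libraries, and the part of this difference in the results below was not tested. Hepatocyte markers had the highest sum of the cell type marker lists in every library, at 122628 and 128639 CPM over 9 markers in the libraries labelled EP300 KO and 146793 and 145783 CPM in those labelled EP300 WT, 3 of them higher and 4 lower. Among all genes tested, 16.7% were higher and 17.5% lower (edgeR, adjusted p below 0.05).

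Wnt ligands bind Frizzled and LRP receptors and stop the destruction complex from degrading beta-catenin, which then enters the nucleus and activates genes together with TCF and LEF factors. In the liver, endothelial cells of the central vein supply Wnts and R-spondins, and the hepatocytes around that vein express glutamine synthetase and other pericentral genes in response. R-spondins act through LGR receptors by removing the ubiquitin ligases RNF43 and ZNRF3, which otherwise clear Frizzled from the cell surface. Many targets of the pathway, among them Axin2, Nkd1, Rnf43 and Znrf3, dampen it in turn.

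In the libraries labelled EP300 KO, 9 of the 10 genes fell and 0 rose, where 17.5% of the 14200 genes tested fell and 16.7% rose, 34.2% in either direction (edgeR quasi-likelihood test, adjusted p below 0.05). All 3 metabolic genes fell, and 6 of the 7 Wnt feedback targets fell, with Nkd1 the exception. The median log2 fold change was -1.36 over the metabolic genes and -1.09 over the feedback targets, against -0.01 over all genes tested. Of the 10 genes, 7 fell at least 2-fold, where 5.01% of all genes tested did, and in all 10 both libraries labelled EP300 KO lay below both libraries labelled EP300 WT, as in 33.5% of all genes (the reverse held for 32.9%). These counts include Sp5, which passed the filter through the libraries labelled EP300 WT alone, so a fall was favoured for it in advance. The genes were also chosen with earlier results of these data known. The classes overlapped in size of change, since the metabolic genes ran from -1.94 to -1.21 and the feedback targets from -2.88 to -0.20 on the log2 scale. A lower level in these bulk samples can mean fewer cells of a type or less RNA per cell, which cannot be told apart.

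**Figure D1:**
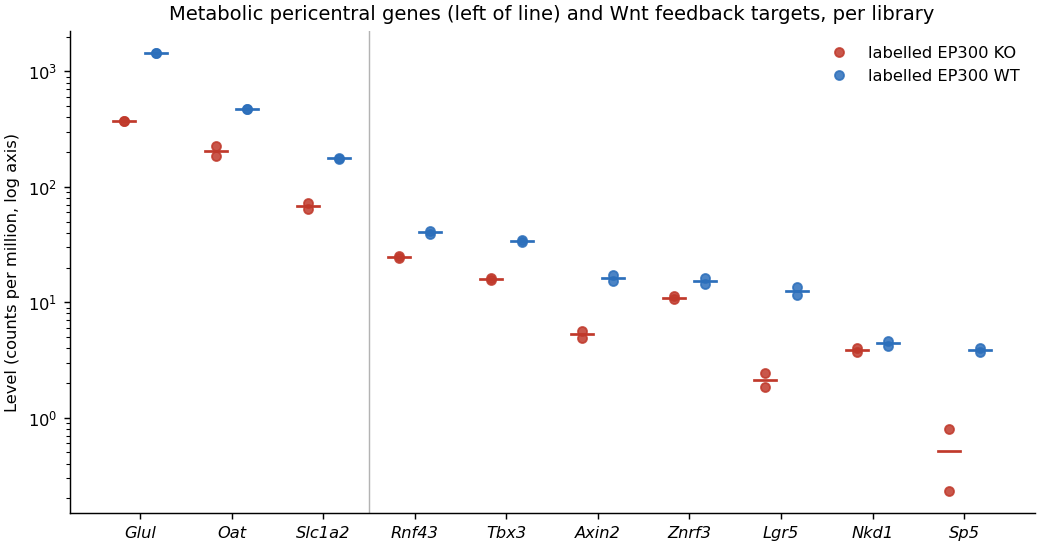
Level of each gene in CPM (log axis) in each library (points), with the mean of the 2 libraries of a label (line). The libraries labelled EP300 KO sit below those labelled EP300 WT in all 10 genes, with the largest ratio of means in Sp5 and the smallest in Nkd1.

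**Figure D2:**
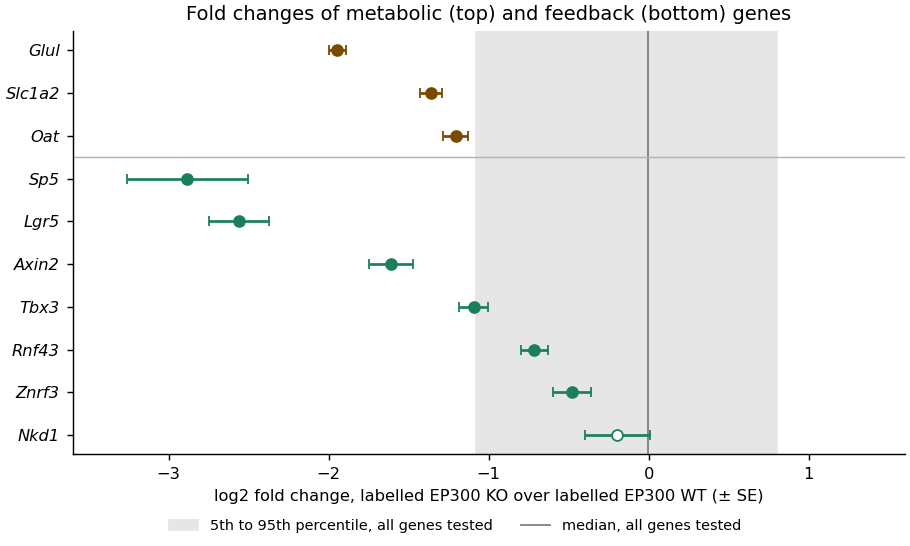
Log2 fold change of each gene (point, with its standard error) between libraries labelled EP300 KO and EP300 WT. Filled points passed the adjusted p threshold. Sp5, Lgr5, Axin2, Tbx3 and all 3 metabolic genes lie below the 5th percentile of all genes tested (-1.08), whereas Rnf43, Znrf3 and Nkd1 lie within the band.

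Promoter windows, from 250 bases before to 50 bases after the RefSeq transcription start (GRCm38.p6), were matched for 7 of the 10 genes. They were searched on both strands for CTTTGAT, a form of the DNA element bound by TCF and LEF factors, and for its shorter core CTTTGA, which every CTTTGAT contains. CTTTGAT is present in 3.73% of the 32851 mouse promoter windows and CTTTGA in 16% of them. Among the 7 genes, 2 hold CTTTGAT, namely Sp5 and Slc1a2, and the same 2 genes hold CTTTGA. In Sp5 the CTTTGAT begins 104 bases before the start, and a separate CTTTGA begins 204 bases before it, both on the gene's strand. In Slc1a2 the CTTTGAT lies on the opposite strand, 207 bases before the start, and a separate CTTTGA lies on the gene's strand 77 bases before it. Rnf43 has 2 windows and the other genes have 1 each. The windows of Slc1a2 and Nkd1 and both of Rnf43 lie inside the gene's span in GENCODE M21, so they are not at its outermost annotated start. The windows of Axin2, Glul, Nkd1, Oat and Rnf43 hold neither string, which says only that these letters are not in these windows. The windows of both genes with a match, and of the widely used target Axin2 and the most abundant gene Glul without one, are shown 5′ to 3′ on the gene's strand, with the motif letters in capitals.
Sp5, chr2:70474673-70474972, plus strand: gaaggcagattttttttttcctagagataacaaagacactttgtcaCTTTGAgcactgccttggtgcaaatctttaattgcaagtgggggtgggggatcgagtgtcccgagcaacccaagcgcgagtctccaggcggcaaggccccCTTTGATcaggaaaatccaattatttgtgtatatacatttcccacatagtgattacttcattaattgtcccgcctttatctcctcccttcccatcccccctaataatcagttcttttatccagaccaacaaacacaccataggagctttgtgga
Slc1a2, chr2:102706188-102706487, plus strand: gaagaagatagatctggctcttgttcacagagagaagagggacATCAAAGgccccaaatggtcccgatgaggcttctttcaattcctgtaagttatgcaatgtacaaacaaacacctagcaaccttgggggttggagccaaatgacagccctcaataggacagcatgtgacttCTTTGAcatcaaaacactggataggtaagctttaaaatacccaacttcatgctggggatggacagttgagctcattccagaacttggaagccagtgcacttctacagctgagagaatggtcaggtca
Axin2, chr11:108920099-108920398, plus strand: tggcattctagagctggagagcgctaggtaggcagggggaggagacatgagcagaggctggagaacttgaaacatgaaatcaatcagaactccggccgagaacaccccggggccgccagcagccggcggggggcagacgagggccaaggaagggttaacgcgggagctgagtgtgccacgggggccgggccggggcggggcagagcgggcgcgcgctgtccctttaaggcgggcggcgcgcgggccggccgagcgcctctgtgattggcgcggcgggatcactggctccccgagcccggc
Glul, chr1:153899679-153899978, plus strand: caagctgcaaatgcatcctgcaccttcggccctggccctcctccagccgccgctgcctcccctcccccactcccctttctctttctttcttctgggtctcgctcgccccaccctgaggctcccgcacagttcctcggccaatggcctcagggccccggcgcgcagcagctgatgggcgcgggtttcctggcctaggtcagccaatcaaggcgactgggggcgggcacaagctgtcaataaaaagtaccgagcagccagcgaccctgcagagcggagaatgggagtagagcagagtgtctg
The 2 genes with a match fell to 13.6% (Sp5) and 38.9% (Slc1a2) of the level in the libraries labelled EP300 WT, and the 2 shown without a match fell to 32.8% (Axin2) and 26.0% (Glul).

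Among the metabolic genes, Glul, which encodes glutamine synthetase, the enzyme that joins ammonia to glutamate in the hepatocytes next to the central vein, was the most abundant and fell the most. Glul (chromosome 1, 153899944 to 153909723, mm10) stood at 375 and 372 CPM in the libraries labelled EP300 KO, against 1439 and 1436 CPM in those labelled EP300 WT. The libraries of a label were nearly identical and the labels were far apart, at -1.94 on the log2 scale (SE 0.05, edgeR adjusted p = 1.4e-13). Of the 14200 genes tested, 214 had a lower log2 fold change.

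Slc1a2, a glutamate transporter that brings the substrate of glutamine synthetase into the cell, moved in the same direction. Slc1a2 (chromosome 2, 102658659 to 102790784) stood at 72.9 and 64.4 CPM in the libraries labelled EP300 KO and at 175 and 178 CPM in those labelled EP300 WT, which gave -1.36 on the log2 scale (SE 0.07, edgeR adjusted p = 3.6e-10). Oat, the ornithine aminotransferase that turns ornithine towards glutamate, is on chromosome 7 (132557478 to 132576398). It stood at 227 and 183 CPM in the libraries labelled EP300 KO and at 469 and 477 CPM in those labelled EP300 WT, which gave -1.21 on the log2 scale (SE 0.08, edgeR adjusted p = 6.0e-09). The libraries labelled EP300 KO differed from each other more in Oat than in Glul, with a standard deviation of 30.7 CPM around 205 CPM in Oat and of 1.62 CPM around 373 CPM in Glul (n = 2 each). The gap to the libraries labelled EP300 WT was larger than this spread in each of the 3 genes.

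Among the feedback targets, the transcription factor Sp5 and the R-spondin receptor Lgr5 had the largest falls. Sp5 (chromosome 2, 70474923 to 70477729), a zinc finger factor induced by Wnt signals, had 4 and 14 counts in the libraries labelled EP300 KO and 77 and 71 counts in those labelled EP300 WT. Its log2 fold change was -2.88 (SE 0.38, edgeR adjusted p = 2.0e-05), and it is the least precise of the 10 because it rests on so few counts. It was -4.02 without EP300 KO replicate 2 and -2.25 without EP300 KO replicate 1, so the size of the fall depends on which library labelled EP300 KO is used, and the call held in both. Lgr5 (chromosome 10, 115450311 to 115587780), which also marks stem cells of the gut, stood at 2.43 and 1.84 CPM in the libraries labelled EP300 KO and at 13.6 and 11.6 CPM in those labelled EP300 WT. The difference was -2.56 on the log2 scale (SE 0.19, edgeR adjusted p = 2.8e-08), and 101 of all genes tested had a lower one.

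Axin2 and Tbx3 followed with falls of more than 2-fold. Axin2 (chromosome 11, 108920349 to 108950783) encodes an inducible scaffold of the destruction complex and is widely used to read out Wnt activity. It stood at 5.67 and 4.94 CPM in the libraries labelled EP300 KO and at 17.1 and 15.3 CPM in those labelled EP300 WT, which gave -1.61 on the log2 scale (SE 0.14, edgeR adjusted p = 1.9e-07). Tbx3 (chromosome 5, 119670669 to 119684724), a T-box factor that mainly represses transcription, stood at 16.2 and 15.6 CPM in the libraries labelled EP300 KO and at 34.7 and 33.1 CPM in those labelled EP300 WT. The log2 fold change of Tbx3 was -1.09 (SE 0.09, edgeR adjusted p = 1.3e-07), and the libraries of a label lay close together in both genes.

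The 2 ubiquitin ligases that clear Frizzled had smaller falls. Rnf43 (chromosome 11, 87662722 to 87735539) stood at 24.0 and 25.2 CPM in the libraries labelled EP300 KO and at 41.5 and 39.2 CPM in those labelled EP300 WT, which gave -0.71 on the log2 scale (SE 0.08, edgeR adjusted p = 6.4e-06). Znrf3 (chromosome 11, 5276324 to 5444847) stood at 11.2 and 10.6 CPM in the libraries labelled EP300 KO and at 16.1 and 14.4 CPM in those labelled EP300 WT, which gave -0.48 on the log2 scale (SE 0.12, edgeR adjusted p = 0.00500). The call of Znrf3 is the weakest of the 9. It ended without EP300 WT replicate 1 (-0.39, adjusted p = 0.110), without a filter on low counts (adjusted p = 0.0524) and with DESeq2 (adjusted p = 0.0768). Against a change of 1.5-fold in place of no change, neither Rnf43 (adjusted p = 0.221) nor Znrf3 passed, while the other 7 genes did.

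Nkd1, which binds Dishevelled and restrains Wnt signalling, did not pass. Nkd1 (chromosome 8, 88521354 to 88594884) stood at 3.99 and 3.68 CPM in the libraries labelled EP300 KO and at 4.58 and 4.21 CPM in those labelled EP300 WT. The log2 fold change was -0.20 (SE 0.20, edgeR adjusted p = 0.50), with 4405 of all genes tested at a lower value. At 64 to 87 counts per library, a fall of the size seen in Rnf43 would lie more than 2 standard errors from this value, and one of the size seen in Znrf3 would not.

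Levels of different genes were compared per kilobase of exon, with all annotated exons of a gene merged. This length can exceed that of the transcript in use, so the order between genes depends on the annotation. In the libraries labelled EP300 KO, the order from high to low was Glul (112 CPM per kilobase), Oat (86.9), Slc1a2 (5.23), Rnf43 (3.75), Tbx3 (2.40), Znrf3 (1.38), Axin2 (0.964), Nkd1 (0.842), Sp5 (0.247) and Lgr5 (0.208). In the libraries labelled EP300 WT it was Glul (433 CPM per kilobase), Oat (200.3), Slc1a2 (13.4), Rnf43 (6.15), Tbx3 (5.12), Axin2 (2.94), Znrf3 (1.93), Sp5 (1.84), Lgr5 (1.23) and Nkd1 (0.964). The metabolic genes headed both orders. Neighbours did not overlap between their 2 libraries except Sp5 and Lgr5 in the libraries labelled EP300 KO and Znrf3 and Sp5 in those labelled EP300 WT. Axin2 thus stood below Znrf3 in the libraries labelled EP300 KO and above it in those labelled EP300 WT, and Nkd1 stood above Sp5 and Lgr5 in the libraries labelled EP300 KO and below both in those labelled EP300 WT. At most 3.80% of the exon bases of any of the 10 genes (in Axin2) are shared with another annotated gene.

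Ratios of 2 genes within a library do not depend on how libraries are scaled, and pairs were chosen after their values were seen. With 2 libraries a label, an exact two-sided permutation test cannot give a p below 0.333, so the ratios are given as values. The Axin2 level per kilobase was 0.153 and 0.122 of that of Axin1, the constitutive scaffold of the destruction complex, in the libraries labelled EP300 KO, against 0.432 and 0.398 in those labelled EP300 WT. Lgr5 stood at 0.0251 and 0.0189 of Lgr4, its more widely expressed relative, in the libraries labelled EP300 KO and at 0.153 and 0.113 in those labelled EP300 WT. In neither ratio did the labels overlap. Among single genes, the libraries labelled EP300 KO lay below those labelled EP300 WT in 33.5% of all genes tested and above them in 32.9%. Axin1 (log2 fold change -0.01, SE 0.09, edgeR adjusted p = 0.970) and Lgr4 (0.02, SE 0.08, edgeR adjusted p = 0.869) did not pass, and the sign of both changed under some alternatives. Glul stood at 0.0823 and 0.0875 of Cyp2e1, an alcohol-metabolizing cytochrome of the pericentral zone, in the libraries labelled EP300 KO and at 0.404 and 0.401 in those labelled EP300 WT. Relative to Cyp2e1, Oat stood at 0.0654 ± 0.00670 (SD, n = 2) in the libraries labelled EP300 KO and at 0.186 ± 0.00160 (SD, n = 2) in those labelled EP300 WT. Cyp2e1 itself rose (log2 fold change 0.30, SE 0.05, edgeR adjusted p = 1.6e-04). The log2 ratio between labels was thus -2.25 for Glul and -1.51 for Oat, against -1.94 and -1.21 for the genes alone. Rnf43 stood at 2.57 and 2.86 times Znrf3 in the libraries labelled EP300 KO and at 3.10 and 3.28 times in those labelled EP300 WT, so the ratio of the 2 ligases moved by much less.

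**Figure D3:**
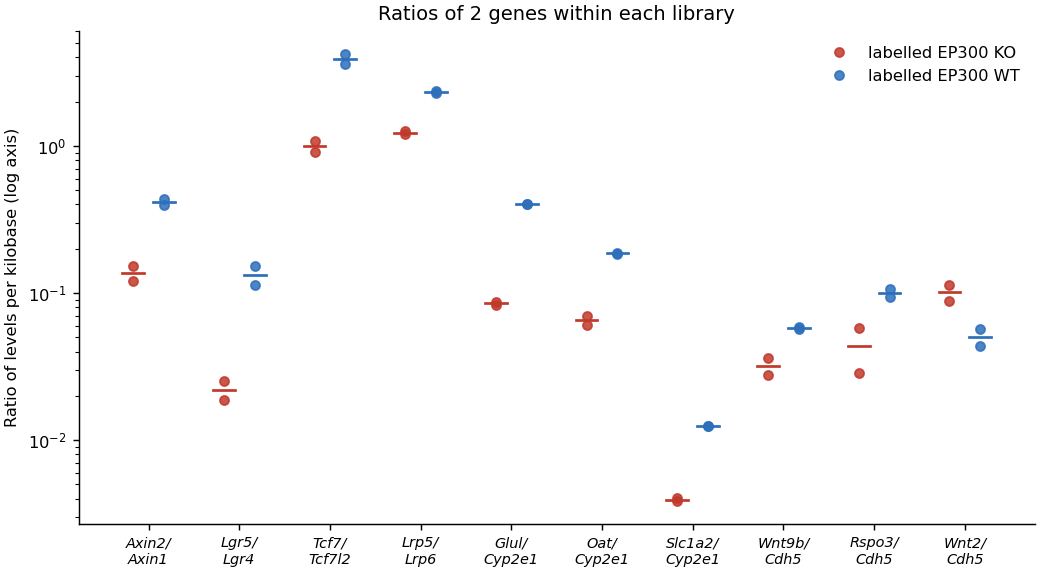
Ratio of the levels per kilobase of 2 genes in each library (points, log axis), with the mean of the 2 libraries of a label (line). The libraries of the 2 labels do not overlap in any ratio shown, and Wnt2 over Cdh5 is the 1 ratio that is higher in the libraries labelled EP300 KO. The pairs were chosen after their values were seen, and no share over all pairs of genes was computed.

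Other targets of the pathway moved mostly in the same direction as the feedback genes. Of 14 listed, 9 were tested, and of these 5 fell, 1 rose and 3 did not pass, where 17.5% of all genes tested fell and 16.7% rose. The median log2 fold change was -0.74 over those 9, against -0.01 over all genes tested. Tcf7, a nuclear partner of beta-catenin that is itself induced by it, stood at 3.99 and 4.54 CPM in the libraries labelled EP300 KO and at 16.4 and 14.4 CPM in those labelled EP300 WT (log2 fold change -1.85, SE 0.15, edgeR adjusted p = 7.6e-08). Tnfrsf19, a receptor of the tumour necrosis factor family, fell by 1.69 and the cell cycle regulator Ccnd1 by 1.19 on the log2 scale. Notum, a secreted enzyme that inactivates Wnts, fell by 0.74 and the transcription factor Sox9 by 0.78, while Myc, which drives growth, rose by 0.65 (SE 0.10), the last 3 named after their values were seen. All 6 kept their calls with each library left out in turn. Of the exon bases, 38.1% in Notum and 23.4% in Ccnd1 are shared with another annotated gene. Lef1, below the filter, had 2 and 1 counts in the libraries labelled EP300 KO and 11 and 6 counts in those labelled EP300 WT. Tcf7l2, the TCF factor with the main role in adult hepatocytes, did not pass (0.13, SE 0.11, edgeR adjusted p = 0.422).

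Of 23 Wnt and R-spondin genes, 8 were tested, 4 fell, 0 rose and 4 did not pass, where 17.5% of all genes tested fell and 16.7% rose. With each library left out in turn, 3 of the 4 falls held. Wnt3, Wnt3a, Wnt8a, Wnt10b, Rspo2 and Rspo4 were listed at 0 counts in all 4 libraries. Rspo3, the R-spondin of the central vein, had 12 and 21 counts in the libraries labelled EP300 KO and 71 and 61 counts in those labelled EP300 WT (log2 fold change -1.85, SE 0.31, edgeR adjusted p = 2.3e-04). Wnt9b, a Wnt of central vein endothelium, had 17 and 19 counts in the libraries labelled EP300 KO and 55 and 56 counts in those labelled EP300 WT (-1.48, SE 0.30, edgeR adjusted p = 0.00103). The labels did not overlap in either gene, with KO below WT, as in 33.5% of all genes tested. Wnt2, the other Wnt known from these cells, had 27 and 30 counts in the libraries labelled EP300 KO and 21 and 27 counts in those labelled EP300 WT, and did not pass (0.39, SE 0.33, edgeR adjusted p = 0.405).

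Hepatocytes are not the known source of these signals, and endothelial markers were present in every library. Of 14 liver endothelial markers, 8 fell and 0 rose, 5 of the 8 with each library left out in turn, and none was at 0. Kdr (log2 fold change -0.004), Stab1 (-0.03), Clec4g (-0.08), Stab2 (-0.10), Kit (-0.33) and Cdh13 (-0.37) did not pass. Of all genes tested, 17.5% fell. The summed level of the 14 markers was 423 and 380 CPM in the libraries labelled EP300 KO and 490 and 480 CPM in those labelled EP300 WT. Relative to the endothelial gene Cdh5, Wnt9b stood at 0.0276 and 0.0360 per kilobase in the libraries labelled EP300 KO and at 0.0568 and 0.0590 in those labelled EP300 WT. Rspo3 stood at 0.0285 and 0.0582 of Cdh5 in the libraries labelled EP300 KO and at 0.107 and 0.0940 in those labelled EP300 WT, while Wnt2 stood at 0.0880 and 0.114 in the libraries labelled EP300 KO and at 0.0434 and 0.0570 in those labelled EP300 WT. The size of these differences depended on the marker. Selp (log2 fold change -1.25), Vwf (-1.23), Lyve1 (-0.885), Thbd (-0.79) and Tek (-0.65) fell further than Cdh5 (-0.61). Pecam1 (-0.45) and Eng (-0.22) fell less. Over the 14 markers taken one at a time, the log2 ratio between labels ran from -1.48 to -0.23 for Wnt9b, from -1.83 to -0.58 for Rspo3 and from 0.39 to 1.64 for Wnt2. Wnt9b stood at 0.318 and 0.425 of Vwf per kilobase in the libraries labelled EP300 KO and at 0.438 and 0.434 in those labelled EP300 WT. Rspo3 stood at 0.328 and 0.687 of Vwf in the libraries labelled EP300 KO and at 0.828 and 0.691 in those labelled EP300 WT. The gap was narrow in both, while the labels overlapped with none of the 14 markers. The 14 ratios of a gene all rest on the same counts of that gene, so they are not separate results. Among single genes, KO lay below WT without overlap in 33.5% of all genes tested and above it in 32.9%. No share over all ratios was computed. Of 10 stellate cell and fibroblast markers 6 fell, 1 of the 6 with each library left out in turn, and their summed level was 195 and 188 CPM in the libraries labelled EP300 KO and 303 and 296 CPM in those labelled EP300 WT. Summed biliary markers stood at 142 and 149 CPM in the libraries labelled EP300 KO and at 181 and 183 CPM in those labelled EP300 WT, with 1 of 6 tested lower (Spp1), and the defining markers Krt19 and Krt7 at 14 counts or fewer in any library. Of the other lists, 3 of 8 macrophage markers rose and 1 fell, 3 of 4 neutrophil markers tested fell, 2 of 4 erythroid markers tested rose, and the 1 lymphocyte marker tested did not pass. Among all genes tested, 16.7% rose. With each library left out in turn, 1 of the 3 macrophage rises and its 1 fall, 0 of the 3 neutrophil falls and 1 of the 2 erythroid rises held. The neutrophil gene Mpo, with 0 and 5 counts in the libraries labelled EP300 KO and 26 and 25 counts in those labelled EP300 WT, passed the filter through the libraries labelled EP300 WT alone. The part of other cell types in the falls of the 10 genes was not tested.

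Genes for receptors and relay proteins passed at shares near or below the 34.2% of all genes tested. Of 9 receptors tested of 14 listed, 1 fell, 1 rose and 7 did not pass, with a median log2 fold change of 0.02. The coreceptor Lrp5 stood at 78.8 and 79.9 CPM in the libraries labelled EP300 KO and at 149 and 142 CPM in those labelled EP300 WT (-0.87, SE 0.06, edgeR adjusted p = 2.1e-08), whereas its paralogue Lrp6 did not pass (0.05, SE 0.06, edgeR adjusted p = 0.576). Lrp5 stood at 1.20 and 1.26 times Lrp6 per kilobase in the libraries labelled EP300 KO and at 2.38 and 2.29 times in those labelled EP300 WT. Fzd8 rose by 0.53, a call that ended without EP300 WT replicate 2 (0.49, adjusted p = 0.0672). Of 14 cytoplasmic relay genes tested of 15 listed, 3 fell, 1 rose and 10 did not pass, none of the 4 calls held with each library left out in turn, and the log2 fold changes ran from -0.36 to 0.31. Ctnnb1, which encodes beta-catenin and is named after its values were seen, stood at 171 and 173 CPM in the libraries labelled EP300 KO and at 200 and 192 CPM in those labelled EP300 WT. It fell by 0.19 on the log2 scale (SE 0.06, edgeR adjusted p = 0.0209), and its call ended without EP300 WT replicate 1 (-0.15, adjusted p = 0.260) or EP300 WT replicate 2 (-0.20, adjusted p = 0.145).

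Nuclear partners and secreted inhibitors gave no common direction. Of 13 nuclear genes tested of 14 listed, 4 rose, 1 fell and 8 did not pass, a share close to the 34.2% of all genes tested. The targeted gene Ep300 is itself among the 4 that rose. Among the Groucho-type corepressors that bind TCF factors, Tle4 rose by 0.96 (SE 0.14) and Tle3 by 0.86 (SE 0.11), while Tle1 fell by 0.74 (SE 0.07), all held with each library left out in turn. Of 11 secreted inhibitors 2 were tested and 1 fell, and of the 2 genes needed to secrete Wnts, Porcn rose and Wls fell, and none of these 3 calls held with each library left out in turn. Porcn had 100 and 75 counts in the libraries labelled EP300 KO and 37 and 62 counts in those labelled EP300 WT, and its call ended without EP300 WT replicate 1 (0.65, adjusted p = 0.156). The call of Wls (-0.48) ended without EP300 KO replicate 1 (-0.35, adjusted p = 0.0747), EP300 WT replicate 1 (-0.56, adjusted p = 0.0570) and EP300 WT replicate 2 (-0.38, adjusted p = 0.208).

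**Figure D4:**
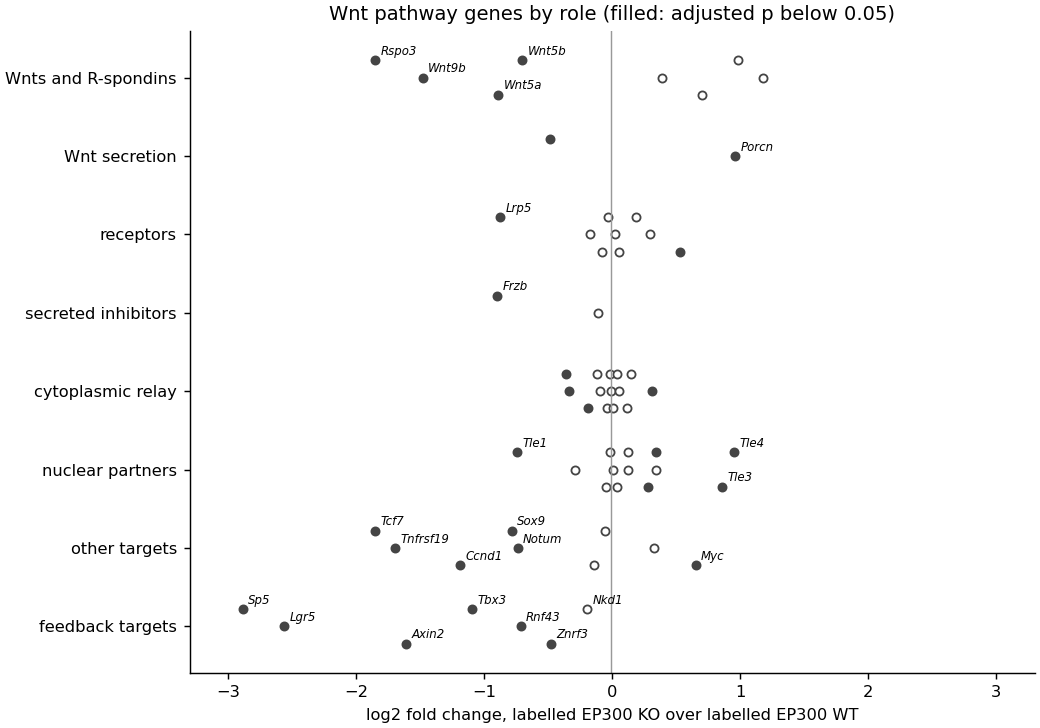
Log2 fold change between libraries labelled EP300 KO and EP300 WT of each Wnt pathway gene that passed the filter, by role (filled points passed the adjusted p threshold, and the line is the median of all genes tested). Targets spread to the left, down to -2.88 in Sp5, while cytoplasmic genes stay between -0.36 and 0.31.

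The 10 genes were set beside the other zonal genes of the liver lobule. Of 18 other pericentral genes, 9 fell and 8 rose, where 17.5% and 16.7% of all genes tested did, and 1 did not pass. The falls were led by Slc13a3, a dicarboxylate transporter, at 28.4 and 31.4 CPM in the libraries labelled EP300 KO and 149 and 137 CPM in those labelled EP300 WT (log2 fold change -2.26, SE 0.08). The ammonium transporter Rhbg (-2.19, SE 0.23) and the vasopressin receptor Avpr1a (-2.0, SE 0.10) also fell. Rhbg had 24 and 23 counts in the libraries labelled EP300 KO and 120 and 118 counts in those labelled EP300 WT. Of its exon bases, 61.4% are shared with another annotated gene. Cyp2e1 did not share this fall and rose to 2955 and 2762 CPM in the libraries labelled EP300 KO, against 2314 and 2324 CPM in those labelled EP300 WT (0.30, SE 0.05, edgeR adjusted p = 1.6e-04). Cyp1a2, a cytochrome that metabolizes caffeine and is also pericentral, stood at 442 and 428 CPM in the libraries labelled EP300 KO and at 380 and 381 CPM in those labelled EP300 WT (0.19, SE 0.05, edgeR adjusted p = 0.0113). The call of Cyp1a2 ended without EP300 WT replicate 1 (0.20, adjusted p = 0.147) or EP300 WT replicate 2 (0.21, adjusted p = 0.137), and with scaling by library size alone (0.13, adjusted p = 0.0835). The pericentral genes thus did not move as a block. Of the 9 falls, 7 held with each library left out in turn, and of the 8 rises, 4 did.

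Of 15 periportal genes, 12 rose, 1 fell and 2 did not pass, where 16.7% of all genes tested rose and 17.5% fell. Of the 12 rises, 10 held with each library left out in turn. Cyp2f2, a cytochrome of the periportal zone, stood at 941 and 865 CPM in the libraries labelled EP300 KO and at 152 and 142 CPM in those labelled EP300 WT (log2 fold change 2.62, SE 0.06). The histidine-degrading enzyme Hal (1.15, SE 0.06) and the serine dehydratase Sds (0.95, SE 0.06) also rose. Of the exon bases, 29.6% in Sds and 13.5% in Cyp2f2 are shared with another annotated gene. Cdh1, the adhesion protein E-cadherin, was the member that fell (-0.90, SE 0.07), named after its values were seen.

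**Figure D5:**
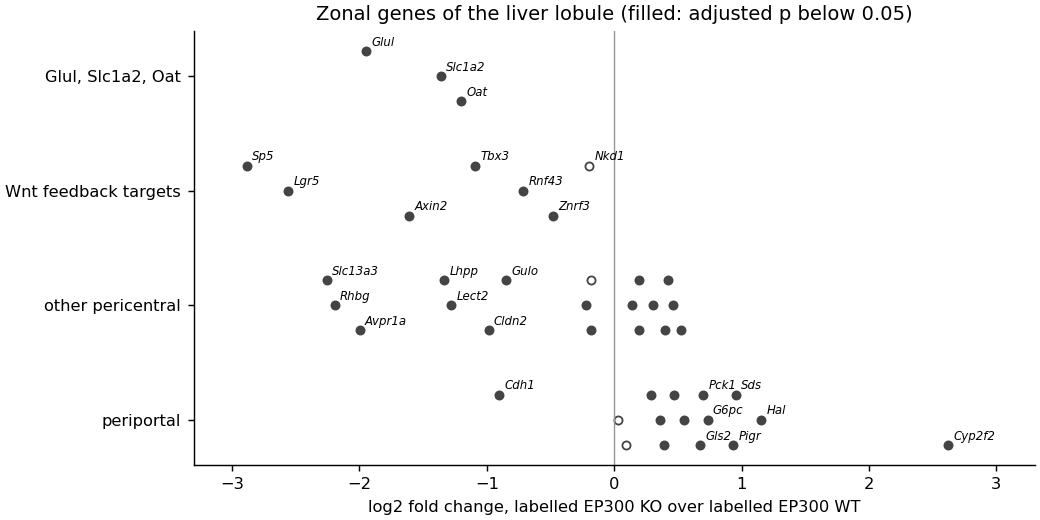
Log2 fold change between libraries labelled EP300 KO and EP300 WT of zonal genes of the liver lobule (filled points passed the adjusted p threshold, and the line is the median of all genes tested). The other pericentral genes run from -2.26 (Slc13a3) to 0.53, on both sides of the line, and the periportal genes lie to its right except Cdh1.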

How the data were processed

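For the EP300 experiment, the deposited table holds raw counts of reads as whole numbers for each Ensembl gene, and these were used without change. Per the submitters' processing notes, the build was mm10 and the tools were STAR, HTSeq and DESeq2, whose roles the notes leave out. Neither the annotation nor the strand setting is given in the sources used here. Per the labels, the kit was an Illumina TruSeq RNA kit. Of 55385 identifiers, 55144 matched a GENCODE M21 symbol, which also gave coordinates and exon lengths. The table has 4 further columns that match no sample and were not used, nor were the diet experiment's tables.

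Counts of the 4 libraries were tested with edgeR 4.0.16 in R 4.3.3 (quasi-likelihood F test, TMM, filterByExpr at its minimum count of 10, a model of the group alone with 2 residual degrees of freedom), with Benjamini-Hochberg adjustment over all 14200 genes and a threshold of 0.05. Each SE was derived as the size of the log2 fold change over the root of its F value. Libraries of a label differed beyond sampling noise (chi-square per degree of freedom 5.50 for EP300 KO and 2.60 for EP300 WT). On simulated counts, edgeR called 64% of 50 genes made to change 1.5-fold, 76% at 2-fold, 92% at 4-fold and 98% at 8-fold, and 11 of 14000 unchanged genes. Far fewer genes were made to change there than the 34.2% called in these data, so these shares need not hold here. The simulated spread was taken from these same libraries, so it does not speak to the spread between mice.

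The genes and lists were chosen with earlier results of these data known. Named genes are the 10 genes, Ep300, Wnt2, Wnt9b, Rspo3, Cyp2e1, Cyp1a2 and, of each list, up to 3 passing genes with the largest change, not all of them printed. Axin1, Lgr4, Lrp6, Tcf7l2, Lef1, Cdh5, Krt7, Krt19, Xist and Ddx3y, and those so marked in the text, were named after their values were seen. So were the endothelial markers other than Vwf, Selp and Lyve1. Alternatives were DESeq2 1.42.0, limma-voom (limma 3.58.1), other scalings and filters, the 20 most abundant genes left out, a 1.5-fold threshold, a block for the replicate number, and leaving out every library in turn.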

Additional observations from a re-analysis of the deposited data

How the results depend on the processing

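The 10 genes kept a negative log2 fold change under all 13 alternatives, and 8 of them kept their side of the threshold under each. The exceptions were Znrf3, which passed in 9 of 13, and Rnf43, which passed in 12 of 13. The 3 metabolic genes passed under all 13, and 4 to 6 of the feedback targets did. The number of genes changed, 4851 with 2366 higher and 2485 lower, was 2940 (1518 and 1422) with DESeq2, 2703 (1416 and 1287) without a filter and 991 (429 and 562) against a 1.5-fold change. The last asks a stricter question, and for the other 2 the cause was not tested. With a library left out it ran from 2306 to 5154, with 1160 to 2574 higher and 1146 to 2580 lower, the lowest without EP300 WT replicate 2 (2306) and without EP300 WT replicate 1 (2602), fits that have fewer samples. Scaling by library size alone gave 1846 higher and 3056 lower, and moved the median of all genes to -0.07. Values near 0 changed sign for Axin1 (0.006 without a filter, and -0.0719 to 0.0728 with a library left out, positive without EP300 KO replicate 1 and, at 0.0174, without EP300 WT replicate 1), Lgr4 (-0.046 with library size alone, and -0.0706 to 0.1355 with a library left out, negative without EP300 WT replicate 1) and Lrp6 (-0.0146 with library size alone).

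The labels do not say that a replicate number pairs libraries, and same-numbered libraries did not deviate together (correlation over genes of 0.0113). With the replicate number as a block, 5190 genes changed, 2526 higher and 2664 lower, and 6 feedback targets and 3 metabolic genes passed, as without it. Depth limits Sp5, Wnt9b, Rspo3 and Wnt2 most, since they rest on 4 to 77 counts in a library.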
